A study of Mus musculus with 21 samples.

Results

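Spiral ganglion neurons (SGNs) of the mouse cochlea were compared between postnatal day (P) 8, before the onset of hearing, and P30, when the auditory nerve is mature. The comparison used 3 RNA-seq libraries at each age, 6 of the 21 libraries in the series. It covered 13315 of the 52550 genes in the count table, namely all genes with a CPM (counts scaled to library size) over 1 in all 3 libraries of either age. Of these, 11636 passed at both ages, 1117 at P8 only and 562 at P30 only. Genes that were higher in glia than in SGNs were marked throughout, because the picked neurons lie among Schwann cells and satellite glia.

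The series follows SGNs from E15.5 to P30 and adds hair cells at P12 and cochlear glia at P8 as reference cell types. Both SGN groups were tdTomato-positive cells picked by hand from C57BL/6 mice that carried 1 copy each of ShhCre and of the Ai9 reporter (Rosa26-CAG-loxp-stop-loxp-tdTomato). Each library pooled 102 to 140 cells at P8 and 90 to 114 cells at P30. The P14 SGNs came from the same cross. The P8 glia, 86 to 125 picked cells a library, came from vGlut3-iCreER/+; Ai9/+ mice given tamoxifen at P2 and P3, a line in which recombination reaches cochlear glia. Cre from the Shh locus acts from embryonic stages on and marks a cell permanently, so the picked cells are those with past Shh expression and hold no stated SGN subtype. How many animals gave a library was not given in the sources used here, so p-values measure only the spread between these libraries. Before sequencing, samples had been kept only if qPCR showed a neuronal marker and little of the glial gene Sox10 and the hair cell gene Myo6.

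SGNs carry sound signals from hair cells to the brainstem. In the weeks around the onset of hearing their axons are myelinated, their synapses mature and spontaneous activity driven by the cochlea gives way to sound-evoked firing. Mature SGNs fire brief action potentials at high rates and in time with the stimulus, which rests on fast sodium and potassium channels, on nodes of Ranvier and on reliable vesicle release.

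Levels are given as RPKM, the reads of a gene scaled to its exon length and to the normalised library size, in the order of replicates 1, 2 and 3. Differences are log2 fold changes of P30 over P8 with the standard error (SE) from limma, and p-values are limma's, adjusted over all 13315 genes by the Benjamini-Hochberg method. A gene was called changed when the adjusted p was under 0.05 and the change was over 2-fold.

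Library totals ran from 28516927 to 35591662 counts at P8 and from 20384100 to 37287489 at P30. The log2 levels of the 13315 genes correlated at 0.937 to 0.967 between P8 libraries, at 0.952 to 0.976 between P30 libraries and at 0.879 to 0.935 between the ages, where libraries share the cell type and the protocol. The 12 SGN markers were all present: their summed level was 3465 to 3915 RPKM at P8, 4448 to 5081 RPKM at P30 and 36.4 to 338 RPKM in glia. In TPM (RPKM rescaled to a fixed total) the sums were 3995 to 8425 at P8 and 4748 to 7542 at P30 and overlapped (exact two-sided permutation test, p = 0.9, where 0.1 is the smallest possible). In RPKM, and likewise in CPM, every P30 sum lay above every P8 sum (exact two-sided permutation test, p = 0.1). Of the 12 markers Snap25 alone was called, and the median log2 fold change was -0.006, with 6 higher and 6 lower at P30. Libraries with replicate number 1 stood apart at both ages. They held most of the signal of 10 connective tissue markers (149 RPKM in P8 replicate 1 against 19.1 and 13.2 in the other P8 libraries, and 57.6 RPKM in P30 replicate 1 against 3.11 and 3.24). The same was so for 7 blood cell markers (22.6 RPKM against 0.761 and 0.514 at P8, 15.1 against 1.17 and 2.58 at P30), 7 endothelial markers (11.7 RPKM against 0.587 and 0.211 at P8, 1.88 against 0.406 and 0.119 at P30) and 8 supporting cell markers (96.1 RPKM against 4.65 and 5.01 at P8, 15.8 against 2.12 and 1.01 at P30). Macrophage markers summed to 1.79 to 2.80 RPKM at P8 and 0.597 to 1.94 at P30, with C1qa at 0 in all 6 libraries. Hair cell markers summed to 177 to 321 RPKM at P8 and 67.9 to 293 at P30, mostly from Ocm (oncomodulin), and did not separate the ages (TPM sums, exact two-sided permutation test, p = 0.2). By limma none of the 12 hair cell, 8 connective tissue, 2 supporting cell, 1 macrophage or 1 blood cell marker tested changed, nor by edgeR, while DESeq2 gave 1 hair cell rise and the replicate block 1 hair cell and 1 connective tissue fall. With sample quality weights limma gave 3 hair cell, 2 connective tissue and 1 supporting cell falls. At an unadjusted p under 0.05, 1 hair cell and 1 supporting cell marker were lower and none higher. No endothelial marker passed the CPM filter.

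Between P8 and P30, 766 of the 13315 genes changed (5.75%), 323 of them higher (2.43%) and 443 lower (3.33%) at P30. These shares are the background for the counts of each gene list below. The P30 libraries were higher in potassium channel subunits, the sodium channel subunits Scn8a and Scn4b, the fusion protein Snap25, the hyaluronan link protein Hapln4 and the glycolytic enzymes Pkm and Pfkfb3. The P30 libraries were lower in 4 tubulin genes, growth cone proteins such as Basp1 and Crmp1, the DNA methylation enzymes Dnmt3a, Tet1, Tet2 and Tet3, and a large group of myelin and matrix genes. Rises were smaller than falls: the median was 2.63-fold among called rises and 3.77-fold among called falls, and 79 rises and 212 falls exceeded 4-fold. The median over all 13315 genes was -0.02 on the log2 scale. At an unadjusted p under 0.05, 1489 genes were higher and 1452 lower. Genes that passed the CPM filter at only 1 age had to differ, and without them 289 rises and 349 falls remained. In every called rise, and in 442 of 443 called falls, the 3 libraries of one age lay above the 3 of the other, as they did upward in 19.0% and downward in 16.3% of all 13315 genes.

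The balance of rises and falls depended on the processing more than the direction of single genes did. With scaling to library size only, 226 genes were higher and 532 lower, with edgeR 196 and 422, and with DESeq2 286 and 647. Without P30 replicate 3 the counts were 174 higher and 166 lower, without P30 replicate 2 they were 255 and 236, and without both first replicates, a setting chosen after seeing the data, 208 and 225. Of the 766 calls, 286 were kept in each of the 6 fits that left out 1 library (136 rises and 150 falls), and no called gene changed sign in any alternative.

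Of the 323 rises 244 were of genes that SGNs express more than glia do, and of the 443 falls 225 were of genes that glia express more. Among all 13315 genes, 2611 (19.6%) were over 2-fold higher in P8 glia than in the mean of P8 and P30 SGNs, 4122 (31%) were higher in SGNs and 6582 were neither. The remaining rises were 12 glia-higher genes and 67 of neither class, and the remaining falls 96 SGN-higher genes and 122 of neither class. The median log2 fold change from P8 to P30 was -0.46 over the glia-higher genes, 0.22 over the SGN-higher genes and -0.01 over the rest. Both comparisons use the same SGN libraries, so these classes are not independent of the change with age. Classed against P8 SGNs alone, 167 falls and 24 rises were higher in glia and 151 falls higher in SGNs. Classed against P30 SGNs alone, 267 falls and 5 rises were higher in glia and 47 falls higher in SGNs. Without P30 replicate 3, 83 falls were higher in glia and 44 higher in SGNs, and without both first replicates 98 and 57.

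**Figure D1:**
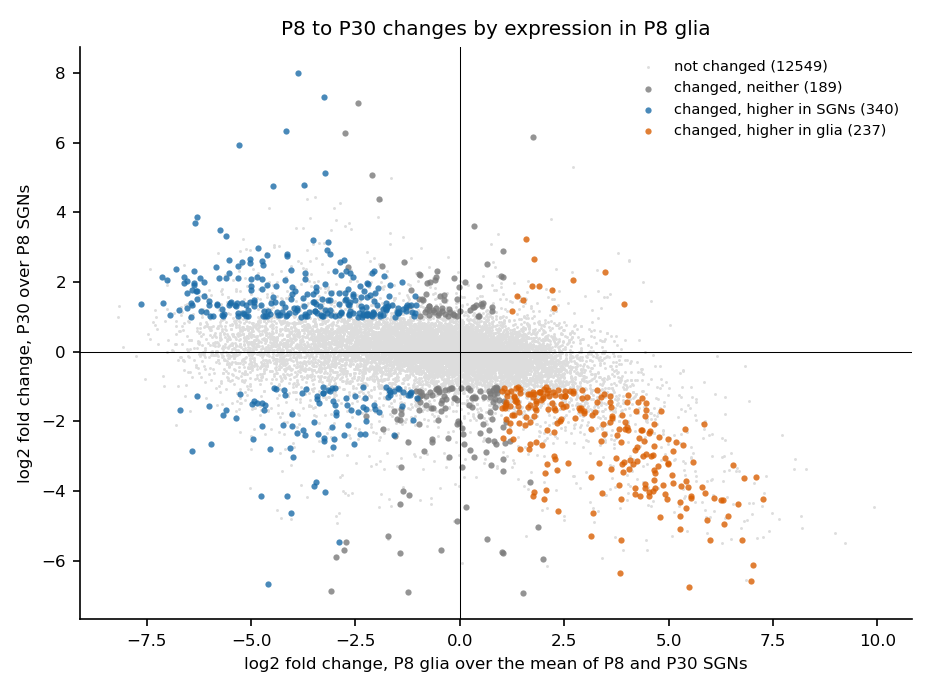
Log2 fold change of P30 over P8 SGNs (vertical axis) against log2 fold change of P8 glia over the mean of P8 and P30 SGNs (horizontal axis) for 13315 genes, coloured by call and class. Called rises sit mostly on the SGN side (244 of 323) and called falls spread over both sides, with 225 of 443 on the glial side. The axes share the SGN libraries.

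The summed level of Schwann cell myelin genes, a product of glia, was higher in every P8 SGN library than in the P30 libraries. Prx (periaxin, a scaffold protein of myelinating Schwann cells, chr7:27499324-27520214, plus strand) was at 17.5, 16.9 and 19.8 RPKM at P8 and 2.78, 1.41 and 0.328 RPKM at P30, beside 131, 125.4 and 98.5 RPKM in glia. Every P8 library was above every P30 library, and P30 replicate 1 was the highest of its age (log2 fold change -3.90 ± 0.64 (SE), adjusted p = 0.00117). Pmp22, a myelin membrane protein, was at 428, 169.7 and 279 RPKM at P8 and 107.6, 14.4 and 2.20 RPKM at P30. Of the 11 Schwann cell myelin markers tested, 8 fell and none rose. The share of falls was 72.7%, beside 3.33% of all genes and 8.62% of glia-higher genes. Mal (from 16.6 ± 1.92 to 2.04 ± 1.64 RPKM), Cnp (from 24.8 ± 4.07 to 5.33 ± 2.48 RPKM), Drp2 (from 9.995 ± 1.81 to 3.30 ± 1.43 RPKM) and Gjc3 (from 13.9 ± 5.86 to 1.13 ± 0.692 RPKM) were among them as well, each given as the mean ± SD of 3 libraries. Ugt8a and Fa2h, enzymes of myelin lipid synthesis, did not pass the test, with Ugt8a at 15.2, 19.0 and 17.9 RPKM at P8 and 22.2, 41.2 and 29.0 RPKM at P30. Summed over 14 markers, the level was 13.8%, 8.44% and 10.5% of the glial mean in the P8 libraries and 2.76%, 1.20% and 0.602% in the P30 libraries. The P14 libraries lay between, at 6.27%, 4.54% and 1.88%. The TPM sums did not overlap between P8 and P30 (mean 1341 ± 409 and 163 ± 117, n = 3 each, exact two-sided permutation test, p = 0.1, the smallest possible). In pools of picked cells, fewer attached glia and less RNA per glial cell cannot be told apart.

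**Figure D2:**
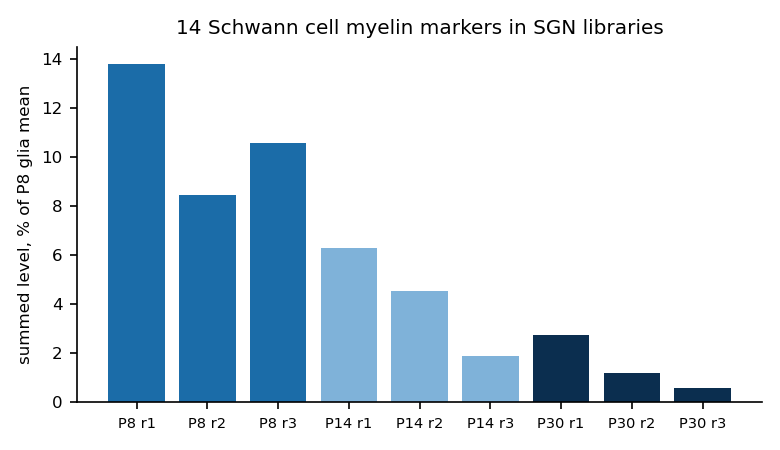
Summed level of 14 Schwann cell myelin markers in each P8, P14 and P30 SGN library as a percentage of the mean of the 3 P8 glia libraries (bars, 1 per library). The P8 bars run from 8.44% to 13.8% and the P30 bars from 0.602% to 2.76%, with no overlap.

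The other glial markers were mixed. Of 9 glial identity markers tested 4 fell. Sox10, a transcription factor of the glial lineage, was at 17.6, 5.70 and 7.93 RPKM at P8 and 1.68, 0.313 and 0.150 RPKM at P30. Erbb3, the neuregulin receptor, was at 4.59, 1.81 and 4.12 RPKM at P8 and 0.770, 0.247 and 0.0676 RPKM at P30. Cryab (from 63.7 ± 34.2 to 8.02 ± 5.97 RPKM) and Sostdc1 (from 55.3 ± 16.3 to 4.87 ± 6.35 RPKM) fell as well. S100b and Kcna1 of the same list were high in SGNs and did not pass the test, S100b at 103.3, 95.9 and 134 RPKM at P8 and 189.8, 198 and 236 RPKM at P30. Of 7 satellite glia markers 4 fell. The potassium channel Kcnj10 was at 22.4, 18.1 and 11.2 RPKM at P8 and 3.11, 1.41 and 0.601 RPKM at P30. The others were the glutamate transporter Slc1a3 (from 2.56 ± 0.891 to 0.488 ± 0.478 RPKM), glutamine synthetase Glul (from 37.9 ± 3.24 to 13.2 ± 7.17 RPKM) and Ttyh1 (from 9.24 ± 1.90 to 1.20 ± 1.08 RPKM). Sparcl1 was at 984, 1129 and 1216 RPKM at P8 and 1003, 1157 and 1264 RPKM at P30, above its 221 RPKM in glia, with no difference between the ages beyond the spread (log2 fold change 0.00 ± 0.15). The TPM sums of both lists overlapped between the ages (exact two-sided permutation test, p = 0.5 for each). Without P30 replicate 3 the falls numbered 6 of the myelin markers, 1 of the glial identity markers and 2 of the satellite glia markers.

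As a yardstick for single genes, the mean fall in RPKM was set beside 9.40% of the gene's level in P8 glia, the difference of the myelin marker sums between P8 and P30. Of the 225 glia-higher falls, 167 fell by more than this and 58 by less, with a median ratio of 1.66, and 43 fell by over 4 times it. For SGN-higher falls the class fixes a ratio far above 1, so no count is given for them. The myelin markers set the yardstick, so their own ratios only show their spread. For Prx the ratio was 1.49, for Gjc3 0.317 and for Pmp22 1.88. Sox10, which is not among the myelin markers, had a ratio of 0.603. The yardstick takes glia at P30 to have the levels of glia at P8, and glia at P30 were not analysed here.

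The 6 largest falls among abundant glia-higher genes included Emid1, the laminin chain Lama2, the Schwann cell tight junction protein Cldn19, the basement membrane collagen Col4a1 and the calcium release channel Itpr3. Lama2 was at 14.7, 7.96 and 7.9997 RPKM at P8 and 1.10, 0.140 and 0.0435 RPKM at P30, and Cldn19 at 12.2, 8.85 and 7.62 RPKM at P8 and 1.53, 0.224 and 0.0477 RPKM at P30. Emid1 had 6.06, 3.72 and 4.95 RPKM at P8 and 0.227, 0 and 0.0352 RPKM at P30, including a library with no read. P30 libraries were below P8 libraries for each, and the falls were 1.07 times the yardstick for Lama2, 0.664 for Cldn19, 1.93 for Col4a1, 0.613 for Itpr3 and 0.783 for Emid1. The calls of Col4a1 and Itpr3 were lost with libraries left out (adjusted p up to 0.152 for Col4a1 without P30 replicate 3 and 0.0612 for Itpr3 without P30 replicate 3). Glia-higher genes that rose were few. The largest was of Mcam, a cell adhesion molecule, at 5.89, 5.54 and 6.90 RPKM at P8 and 27.7, 26.4 and 38.1 RPKM at P30. Next came Syde1 (a GTPase-activating protein, from 2.09 ± 0.505 to 7.83 ± 0.569 RPKM), Dnaja4 (an HSP70 co-chaperone, from 1.84 ± 0.377 to 6.11 ± 1.88 RPKM), Lpin1 (a phosphatidate phosphatase, from 3.03 ± 0.511 to 8.59 ± 0.828 RPKM) and Specc1 (from 2.07 ± 0.684 to 5.48 ± 0.935 RPKM). Utrn (utrophin) was at 18.4, 11.6 and 12.9 RPKM at P8 and 30.4, 30.01 and 46.1 RPKM at P30. No overlap between the ages was a condition for naming these 6. Utrn and Lpin1 kept the call without any 1 library, and Lpin1 lost it without both first replicates (limma, adjusted p = 0.0624). The calls of Mcam, Syde1, Dnaja4 and Specc1 were lost at an adjusted p up to 0.078 for Mcam without P30 replicate 3, 0.0591 for Syde1 without P8 replicate 3, 0.0665 for Dnaja4 without P8 replicate 1 and 0.0594 for Specc1 without P8 replicate 2. Exons of another gene cover 44.1% of Dnaja4, so its reads cannot be assigned with certainty.

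Among genes that were not higher in glia, the largest rises included a neuropeptide receptor, synaptic organisers and a co-chaperone. Bag3, an HSP70 co-chaperone that directs damaged proteins to autophagy, was at 19.3, 3.13 and 4.49 RPKM at P8 and 105, 54.9 and 99.6 RPKM at P30 (log2 fold change 3.62 ± 0.52 (SE), adjusted p = 0.000434). P8 replicate 1 was the highest of its age, and P30 replicate 2 the lowest of the other. Crhr1, the receptor of corticotropin-releasing hormone, was at 5.04, 6.18 and 9.42 RPKM at P8 and 33.2, 36.4 and 59.8 RPKM at P30 with 0.358 RPKM in glia (log2 fold change 2.62 ± 0.45 (SE), adjusted p = 0.0016). The groups were well apart. Cbln1 (cerebellin, a secreted protein that links neurexins to glutamate receptors of the delta type) was at 0.838, 1.42 and 0.813 RPKM at P8 and 6.83, 7.16 and 6.83 RPKM at P30 (log2 fold change 2.76 ± 0.53 (SE), adjusted p = 0.0037). Nxph4, a secreted neurexin ligand, was at 1.13, 0.791 and 0.460 RPKM at P8 and 9.05, 8.43 and 21.6 RPKM at P30 with the highest value in P30 replicate 3 (log2 fold change 3.86 ± 1.09 (SE), adjusted p = 0.036). Plcxd2, a phospholipase-like protein, rose from 5.91, 9.41 and 7.92 RPKM to 36.0, 36.8 and 77.5 RPKM (log2 fold change 2.57 ± 0.33 (SE), adjusted p = 0.000138). Pfkfb3, which makes the activator of phosphofructokinase, was at 1.17, 2.23 and 1.68 RPKM at P8 and 8.31, 8.10 and 13.3 RPKM at P30 (log2 fold change 2.52 ± 0.39 (SE), adjusted p = 0.000866). The remaining members of the 12 were the transcriptional repressor Bcl6 (from 0.652 ± 0.824 to 2.75 ± 0.724 RPKM), the tetraspanin Rom1 (from 1.49 ± 0.487 to 9.68 ± 1.86 RPKM), and Ccdc28a (from 1.37 ± 0.698 to 8.202 ± 2.14 RPKM). The others were the ankyrin repeat protein Sowahb (from 1.62 ± 0.778 to 9.15 ± 1.748 RPKM), the noncoding RNA Lrp8os3 (from 1.31 ± 0.463 to 7.42 ± 0.601 RPKM) and Art1 (from 1.19 ± 0.491 to 10.5 ± 3.33 RPKM). Art1 is an ADP-ribosyltransferase with 36.5% of its exons shared with another gene. Bag3, Crhr1, Cbln1, Plcxd2, Pfkfb3, Ccdc28a, Sowahb and Art1 kept their calls without any 1 library, but edgeR did not call Bag3 (adjusted p = 0.0618), and neither edgeR nor DESeq2 called Crhr1 (adjusted p up to 0.092). The other calls were lost at an adjusted p up to 0.121 for Nxph4 without P8 replicate 2, 0.136 for Bcl6 without P8 replicate 2, 0.0597 for Rom1 without P8 replicate 1 and 0.0952 for Lrp8os3 without P8 replicate 1.

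Among falls outside the glia-higher class that met the same naming rule, the largest were led by membrane and matrix proteins. Npnt (nephronectin, an integrin ligand of the matrix) was at 31.9, 30.2 and 40.2 RPKM at P8 and 3.79, 3.60 and 2.98 RPKM at P30 (log2 fold change -3.31 ± 0.45 (SE), adjusted p = 0.000324). Fscn1 (fascin, which bundles actin in growth cone filopodia) was at 30.3, 27.5 and 29.2 RPKM at P8 and 6.28, 1.43 and 2.395 RPKM at P30 (log2 fold change -3.24 ± 0.49 (SE), adjusted p = 0.000668). For both genes all P30 libraries lay far below the P8 libraries. Cacna1e, the pore subunit of R-type calcium channels, was at 3.86, 6.22 and 4.93 RPKM at P8 and 0.645, 0.179 and 0.0768 RPKM at P30 (log2 fold change -4.38 ± 0.75 (SE), adjusted p = 0.00168). Fxyd7, a regulator of the sodium-potassium pump, was at 70.4, 49.1 and 80.0 RPKM at P8 and 37.4, 0 and 0 RPKM at P30. P30 replicates 2 and 3 had no read of Fxyd7 while replicate 1 was near the P8 range, and the call (adjusted p = 0.0334) was lost with the replicate number as a block (adjusted p = 0.182) and without P30 replicate 3 (adjusted p = 0.168). Cbln3, a relative of Cbln1, moved the other way, at 4.91, 2.86 and 6.39 RPKM at P8 and 0.113, 0.674 and 0.0861 RPKM at P30 (log2 fold change -4.64 ± 1.04 (SE), adjusted p = 0.0102). Fnbp1l (an F-BAR protein of actin assembly) went from 8.32 ± 1.70 to 1.14 ± 1.002 RPKM, Lama1 (a laminin chain) from 4.80 ± 0.767 to 0.593 ± 0.335 RPKM and Adam19 (a metalloprotease) from 12.6 ± 3.91 to 2.43 ± 2.95 RPKM. Cemip (hyaluronan breakdown) went from 2.06 ± 0.268 to 0.340 ± 0.288 RPKM, Hrc (a calcium-binding protein) from 4.38 ± 0.192 to 0.489 ± 0.262 RPKM and Tmem176b from 22.8 ± 5.23 to 4.68 ± 6.90 RPKM. Npnt, Fscn1, Fnbp1l and Cacna1e kept their calls without any 1 library, though limma with no filter on low counts did not call Cacna1e (adjusted p = 0.319). The highest adjusted p among the rest was 0.0612 for Cbln3 without P30 replicate 1, 0.106 for Lama1 without P30 replicate 3, 0.0768 for Adam19 without P30 replicate 3, 0.0538 for Cemip without P30 replicate 3, 0.0523 for Hrc without P30 replicate 1 and 0.13 for Tmem176b without P30 replicate 3.

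Voltage-gated potassium (Kv) channel genes were the list with the most rises: 11 of 34 tested subunits rose and none fell. Over all genes 2.43% rose, and among SGN-higher genes, to which 28 of the 34 belong, 5.92% rose. The list median was 0.80 against -0.02. With sample quality weights 11 of the 34 rose and 2 fell. No Kv rise was of a glia-higher gene. Kcnc1 (Kv3.1, a fast delayed rectifier that shortens action potentials) was at 35.9, 38.8 and 37.6 RPKM at P8 and 81.5, 89.5 and 91.0 RPKM at P30 (log2 fold change 1.18 ± 0.14 (SE), adjusted p = 9.26e-05). Its P14 libraries were at 62.0, 62.1 and 72.7 RPKM, between the other ages. Kcna2 (Kv1.2, a low-threshold subunit that limits repetitive firing) was at 55.4, 65.7 and 52.4 RPKM at P8 and 124, 143 and 140.3 RPKM at P30 (log2 fold change 1.19 ± 0.17 (SE), adjusted p = 0.000402). Its auxiliary beta subunit Kcnab2 was at 46.1, 51.9 and 53.7 RPKM at P8 and 109, 104 and 124.8 RPKM at P30 (log2 fold change 1.12 ± 0.17 (SE), adjusted p = 0.000668). Both showed tight groups with no overlap. Kcnb2 (Kv2.2) was at 16.1, 13.7 and 18.3 RPKM at P8 and 61.2, 54.2 and 104 RPKM at P30 with the highest value in P30 replicate 3 (log2 fold change 2.10 ± 0.33 (SE), adjusted p = 0.000792). The A-type subunit Kcnd3 was at 4.04, 3.13 and 3.69 RPKM at P8 and 16.8, 12.2 and 23.2 RPKM at P30 and Kcnip4, a partner of such subunits, at 7.82, 10.2 and 9.86 RPKM at P8 and 19.7, 23.6 and 30.6 RPKM at P30. Kcnh7 (an Erg-type channel, from 6.71 ± 0.488 to 22.1 ± 5.98 RPKM), Kcnc2 (Kv3.2, from 13.2 ± 0.527 to 32.8 ± 8.49 RPKM), Kcnab3 (from 14.2 ± 4.48 to 33.3 ± 5.82 RPKM) and Kcnq5 (from 5.95 ± 0.723 to 19.0 ± 8.06 RPKM) were among the 11 too. Abundant members that missed a criterion included Kcna1 (54.5, 76.6 and 70.8 RPKM at P8 and 86.6, 117 and 102.9 RPKM at P30, adjusted p = 0.0696) and Kcnh2 (from 62.0 ± 5.27 to 74.5 ± 8.56 RPKM). Kcnc1, Kcna2, Kcnab2, Kcnb2, Kcnd3, Kcnip4 and Kcnh7 kept their calls without any 1 library, but Kcnd3 was not called by edgeR (adjusted p = 0.0683). Others were lost at an adjusted p up to 0.0796 for Kcnc2 without P30 replicate 3, 0.0682 for Kcnab3 without P8 replicate 1 and 0.146 for Kcnq5 without P30 replicate 3.

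Sodium channel subunits changed in both directions. Of 11 tested, 3 rose and 1 fell (27.3% and 9.09%, beside 2.43% and 3.33% over all genes). Scn4b, a beta subunit associated with resurgent current, was at 23.9, 33.9 and 34.0 RPKM at P8 and 75.6, 94.7 and 86.1 RPKM at P30 (log2 fold change 1.46 ± 0.18 (SE), adjusted p = 9.26e-05). Scn8a (Nav1.6, the pore subunit of mature nodes of Ranvier) was at 24.9, 27.4 and 32.2 RPKM at P8 and 50.9, 64.5 and 62.4 RPKM at P30 (log2 fold change 1.03 ± 0.18 (SE), adjusted p = 0.00194). Among the rest, Scn2b, another beta subunit, was at 42.8, 33.7 and 36.9 RPKM at P8 and 23.6, 10.9 and 14.5 RPKM at P30 (log2 fold change -1.26 ± 0.27 (SE), adjusted p = 0.00757). Scn2b thus fell while Scn4b rose, in groups that did not overlap. The pore subunit Scn1a was at 34.4, 55.9 and 46.8 RPKM at P8 and 39.3, 44.2 and 51.4 RPKM at P30 with no difference beyond the spread. Scn3b was at 10.5, 9.26 and 6.99 RPKM at P8 and 13.1, 1.47 and 0.698 RPKM at P30 with P30 replicate 1 apart from the rest of its age. Scn4b kept its call without any 1 library, while Scn2b lost its call (adjusted p up to 0.0513 for Scn2b without P30 replicate 3). Scn8a, near 2-fold, dropped below that size in 2 of the 6 fits, and 1 of the 3 rises remained with scaling to library size only.

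**Figure D3:**
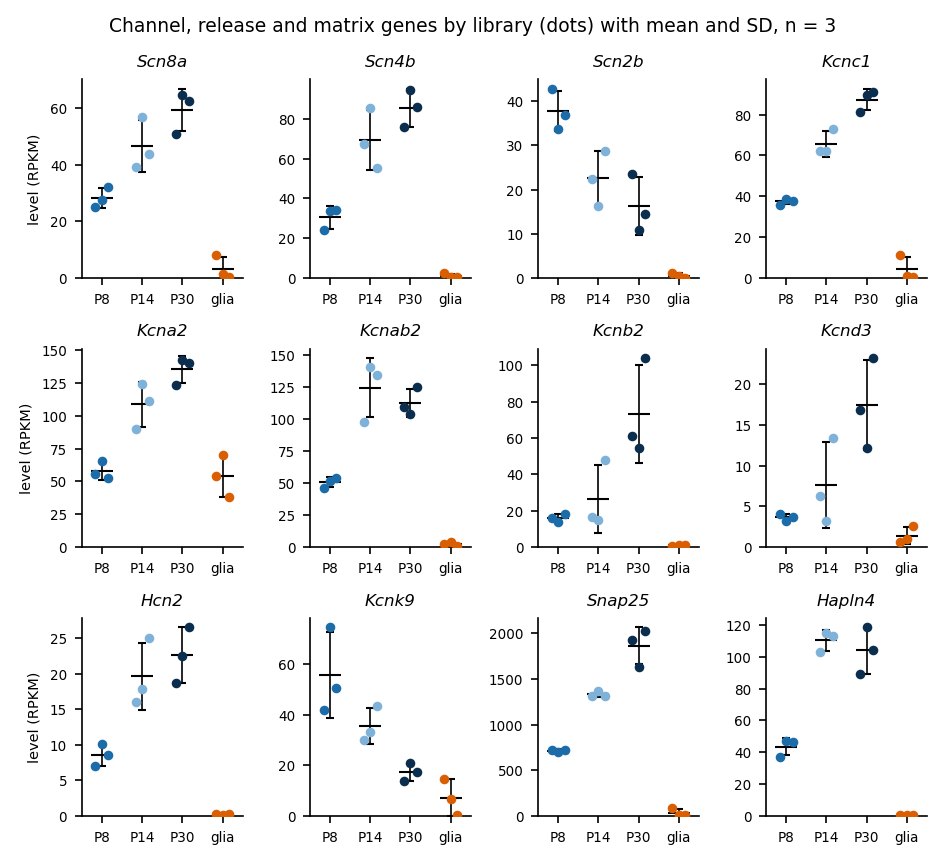
Levels (RPKM, vertical axes from 0) of 12 channel, release and matrix genes in P8, P14 and P30 SGNs and P8 glia. Dots are libraries, the horizontal mark is the mean and the bar the SD (n = 3). Snap25 went from 716 ± 15.2 to 1865 ± 204 RPKM, and Scn2b and Kcnk9 ran opposite to the other genes shown.

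Of 21 other potassium and HCN channel genes, 2 rose and 2 fell. Hcn2, a pacemaker channel of the hyperpolarisation-activated current, was at 7.06, 10.1 and 8.61 RPKM at P8 and 18.7, 22.5 and 26.6 RPKM at P30 (log2 fold change 1.34 ± 0.25 (SE), adjusted p = 0.00242). Hcn4 (from 15.3 ± 0.151 to 15.1 ± 0.398 RPKM) did not pass the test. Kcnk9 (TASK-3, a leak channel) was at 41.7, 74.6 and 50.6 RPKM at P8 and 13.9, 20.98 and 17.5 RPKM at P30 (log2 fold change -1.72 ± 0.32 (SE), adjusted p = 0.0025), with its glial libraries at 14.7, 6.504 and 0.319 RPKM. The other fall was of glia-higher Kcnj10. Kcnj3, a G-protein-gated subunit at 1.31, 2.18 and 2.07 RPKM at P8 and 3.79, 3.98 and 4.998 RPKM at P30 with 31.1% of its exons shared with another gene, lost its call in all 6 leave-outs (adjusted p up to 0.143 for Kcnj3 without P8 replicate 1). Of 19 calcium channel genes 3 fell, none rose and the median was -0.74. Beside Cacna1e, Cacng5 fell, a gene listed here by its name as a calcium channel gamma subunit. Cacng5 was at 44.8, 43.5 and 38.5 RPKM at P8 and 15.2, 9.34 and 12.2 RPKM at P30 (log2 fold change -1.81 ± 0.24 (SE), adjusted p = 0.000208). The last was glia-higher Cacna2d1 (from 3.18 ± 0.695 to 1.18 ± 0.688 RPKM, 2.95 times the glial yardstick, lost at an adjusted p up to 0.142 for Cacna2d1 without P30 replicate 3). Of 18 sodium-potassium and calcium pump genes 2 fell, Fxyd7 and glia-higher Fxyd6, and both falls were lost without P30 replicate 3 and that of Fxyd7 also with the replicate block (limma, adjusted p = 0.182). The pump subunit Atp1b1 (799, 552 and 948 RPKM at P8 and 945, 843 and 1153 RPKM at P30) overlapped between the ages. By limma and edgeR none of 15 calcium buffers and sensors changed (6 higher and 1 lower at an unadjusted p under 0.05), while DESeq2 gave 1 rise and 1 fall, the replicate block 1 rise, sample quality weights 1 rise and 2 falls, and the fit without both first replicates 1 rise. Pvalb (parvalbumin) was at 285, 387 and 477 RPKM at P8 and 329, 478 and 580.1 RPKM at P30.

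At the synapse, Snap25, a SNARE protein of vesicle fusion (chr2:136713453-136782428, plus strand), stood out. It was at 727, 699 and 723 RPKM at P8 and 1932, 1636 and 2028 RPKM at P30, every P30 library over 2 times any P8 library (log2 fold change 1.34 ± 0.11 (SE), adjusted p = 3.79e-06). Its P14 libraries were at 1316, 1367 and 1310.1 RPKM. Among 47 genes of the vesicle release machinery it rose with Syt1, the calcium sensor synaptotagmin-1 (17.7, 16.3 and 17.9 RPKM at P8 and 47.6, 36.9 and 56.0 RPKM at P30), none fell, and the median was 0.43. The share of rises was 4.26%, beside 2.43% over all genes. DESeq2 gave 4 rises and 1 fall in this list, and sample quality weights 4 rises and 3 falls. The rise of Syt1 was lost in each of the 6 leave-outs (adjusted p up to 0.136 for Syt1 without P30 replicate 3). Cplx1 (complexin-1) was at 510.5, 611 and 662 RPKM at P8 and 700.1, 644 and 799 RPKM at P30 with no difference beyond the spread. Of 19 glutamate receptor genes 1 fell, Grin3a, at 0.996, 1.60 and 0.892 RPKM at P8 and 0.584, 0.294 and 0.120 RPKM at P30, and its call was lost in all 6 leave-outs (adjusted p up to 0.234 for Grin3a without P30 replicate 3). The AMPA receptor subunits Gria2 (from 8.27 ± 1.47 to 15.1 ± 3.60 RPKM), Gria3 (from 20.1 ± 1.71 to 17.4 ± 5.93 RPKM) and Gria4 (from 33.2 ± 4.20 to 26.9 ± 3.17 RPKM) and the NMDA receptor subunit Grin1 (from 17.99 ± 1.22 to 20.5 ± 1.01 RPKM) did not pass both criteria. With the replicate block 2 of the 19 fell.

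Among 23 GABA, glycine and acetylcholine receptor and chloride transporter genes, 3 rose and 1 fell, with a median of 0.34. A pair of neighbouring nicotinic subunit genes on chromosome 8 rose, Chrnb3 (chr8:27368711-27399730, plus strand) and Chrna6 (chr8:27403212-27413944, minus strand). Chrnb3 was at 5.39, 7.78 and 6.83 RPKM at P8 and 27.3, 21.7 and 35.6 RPKM at P30 (log2 fold change 2.04 ± 0.32 (SE), adjusted p = 0.000911). Chrna6 was at 3.96, 6.96 and 9.02 RPKM at P8 and 15.4, 13.3 and 20.5 RPKM at P30 (log2 fold change 1.36 ± 0.40 (SE), adjusted p = 0.0466). Slc12a5 (KCC2, the neuronal chloride exporter) was low at both ages, at 0.282, 0.203 and 0.539 RPKM at P8 and 1.56, 0.819 and 2.16 RPKM at P30 (log2 fold change 2.19 ± 0.65 (SE), adjusted p = 0.0449). Gabbr1 (from 29.4 ± 4.69 to 38.0 ± 3.93 RPKM) and Gabbr2 (from 54.6 ± 3.18 to 66.7 ± 6.16 RPKM), subunits of the GABA-B receptor, did not pass the test. Chrnb3 kept its call without any 1 library but lost it with edgeR and with DESeq2 (adjusted p up to 0.232), whereas Chrna6 lost it in all 6 leave-outs and Slc12a5 in 5 (adjusted p up to 0.199 for Chrna6 without P8 replicate 1 and 0.159 for Slc12a5 without P30 replicate 3). With the replicate block 5 of the 23 rose.

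Node and matrix genes changed in both directions as well. Of 21 genes of the node of Ranvier and axon initial segment, 3 rose and 1 fell (1 and 1 without P30 replicate 3). Fgf12, an intracellular FGF-like protein that binds sodium channels, was at 109, 106 and 105 RPKM at P8 and 259, 263 and 389.7 RPKM at P30 (log2 fold change 1.44 ± 0.21 (SE), adjusted p = 0.000472). Lgi3 (23.5, 34.1 and 34.1 RPKM at P8 and 51.5, 63.2 and 76.1 RPKM at P30) and its receptor family member Adam11 (10.4, 8.31 and 8.52 RPKM at P8 and 25.1, 18.2 and 28.1 RPKM at P30) rose too. Gldn (gliomedin, which clusters sodium channels at nodes) fell, at 33.2, 54.6 and 33.9 RPKM at P8 and 12.3, 11.1 and 7.88 RPKM at P30 with 8.31, 11.3 and 9.51 RPKM in glia (log2 fold change -1.96 ± 0.28 (SE), adjusted p = 0.000395). The adhesion protein Cntn1 (from 51.6 ± 4.56 to 47.5 ± 5.02 RPKM) and Epb41l3 (from 40.3 ± 8.42 to 50.2 ± 0.605 RPKM) did not pass the test. Of 11 perineuronal net and link protein genes, 2 rose and 1 fell, with a median of -0.65. Hapln4, a link protein that fixes proteoglycans to hyaluronan around axons, was at 37.3, 46.8 and 46.7 RPKM at P8 and 89.2, 119 and 104 RPKM at P30 (log2 fold change 1.21 ± 0.15 (SE), adjusted p = 0.000125), and its P14 libraries at 102.96, 115 and 113 RPKM already matched P30. The proteoglycan Bcan (brevican) was at 3.54, 5.74 and 3.87 RPKM at P8 and 6.87, 15.6 and 9.88 RPKM at P30 and its relative Ncan (neurocan) at 16.6, 16.2 and 13.1 RPKM at P8 and 6.44, 6.44 and 5.95 RPKM at P30 (log2 fold change -1.32 ± 0.23 (SE), adjusted p = 0.00205). Hapln1 was at 37.1, 48.8 and 45.6 RPKM at P8 and 10.7, 15.4 and 12.9 RPKM at P30 in groups that did not overlap, with an adjusted p of 0.151. Its fall was called with sample quality weights and in the limma fit of the 6 libraries only. The log2 fold change of Hapln1 ran from -1.94 to -1.67 over the alternatives. Fgf12, Gldn, Hapln4 and Ncan kept their calls without any 1 library, and Ncan lost its call in the limma fit of all 21 libraries (adjusted p = 0.0675). Bcan and Adam11 did not (adjusted p up to 0.145 for Bcan without P30 replicate 2 and 0.069 for Adam11 without P30 replicate 3), and Lgi3 dropped to 2-fold or less in 3 of the 6 fits.

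Some genes of the growing axon and its cytoskeleton fell. Of 27 neurofilament, tubulin and microtubule genes 6 fell and none rose, beside 3.33% falls over all genes, and none of the 6 was glia-higher. Tuba1a, the alpha tubulin of developing neurons, was at 1195, 1108 and 1131 RPKM at P8 and 685, 340.3 and 403 RPKM at P30 (log2 fold change -1.33 ± 0.23 (SE), adjusted p = 0.00175). Tubb2b was at 59.2, 65.6 and 68.5 RPKM at P8 and 29.4, 8.63 and 12.5 RPKM at P30 (log2 fold change -2.04 ± 0.33 (SE), adjusted p = 0.00108). Tubb2a was at 249, 268 and 293 RPKM at P8 and 123, 65.8 and 101.5 RPKM at P30 (log2 fold change -1.52 ± 0.27 (SE), adjusted p = 0.00199). Tubb5 was at 173, 177 and 184 RPKM at P8 and 98.7, 55.0 and 65.0 RPKM at P30 (log2 fold change -1.33 ± 0.19 (SE), adjusted p = 0.000408). In all 4 tubulins P30 replicate 1 was the highest of its age and still below every P8 library. The near-identical Tuba1b was at 602, 537 and 648 RPKM at P8 and 654, 521 and 645 RPKM at P30, without a difference beyond the spread, and reads of such paralogs may be split between them with uncertainty. Dcx (doublecortin, a microtubule protein of young neurons) was at 6.66, 6.21 and 5.72 RPKM at P8 and 2.32, 2.09 and 1.502 RPKM at P30 (log2 fold change -1.68 ± 0.29 (SE), adjusted p = 0.00164). Stmn1 (stathmin) was at 45.9, 30.3 and 42.5 RPKM at P8 and 26.1, 8.81 and 10.9 RPKM at P30 (log2 fold change -1.43 ± 0.40 (SE), adjusted p = 0.0363). The neurofilament genes Nefl (from 1317 ± 134 to 1094 ± 27.4 RPKM) and Nefm (from 583 ± 90.8 to 616 ± 23.0 RPKM) and the microtubule protein Map1b (from 649 ± 88.9 to 849 ± 85.3 RPKM) did not pass both criteria. Tuba1a, Tubb2a, Tubb2b, Tubb5 and Dcx kept their calls without any 1 library. With no filter on low counts limma called neither Tuba1a (adjusted p = 0.0881) nor Dcx (adjusted p = 0.174). Stmn1 lost its call at an adjusted p up to 0.178 without P30 replicate 3.

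Of 55 axon growth and guidance genes 17 fell (30.9%, beside 3.33% over all genes) and 1 rose, with a median of -0.95. Of the 17, 7 were glia-higher, a class in which 8.62% of all members fell. Basp1, a growth cone membrane protein, was at 84.2, 90.6 and 79.9 RPKM at P8 and 24.4, 11.03 and 7.87 RPKM at P30 (log2 fold change -2.64 ± 0.30 (SE), adjusted p = 5.40e-05). Gap43, another growth cone protein, was at 50.5, 31.6 and 46.8 RPKM at P8 and 24.5, 1.85 and 3.70 RPKM at P30 and at 7.37, 18.8 and 74.9 RPKM in glia (log2 fold change -2.65 ± 0.71 (SE), adjusted p = 0.0267). P30 replicate 1 was close to the P8 range for Gap43 and the other P30 libraries far lower. Crmp1, a collapsin response mediator that relays semaphorin signals, was at 16.2, 22.9 and 21.5 RPKM at P8 and 7.26, 7.46 and 7.30 RPKM at P30 (log2 fold change -1.48 ± 0.18 (SE), adjusted p = 0.000109). Its relatives Dpysl4 (from 8.95 ± 1.68 to 3.68 ± 0.118 RPKM) and Dpysl5 (from 20.96 ± 1.72 to 8.78 ± 5.74 RPKM) fell and Dpysl2 (from 165 ± 5.91 to 205 ± 22.1 RPKM) did not pass the test. Among guidance receptors the semaphorin co-receptor Plxna1 was at 42.0, 47.5 and 45.9 RPKM at P8 and 18.2, 18.6 and 17.6 RPKM at P30 (log2 fold change -1.35 ± 0.16 (SE), adjusted p = 6.36e-05). The netrin receptor Unc5d was at 25.9, 31.8 and 32.8 RPKM at P8 and 13.3, 14.9 and 15.6 RPKM at P30 (log2 fold change -1.08 ± 0.20 (SE), adjusted p = 0.00262). The ephrin receptor Ephb3 was at 6.09, 8.68 and 6.77 RPKM at P8 and 2.07, 1.54 and 1.94 RPKM at P30 (log2 fold change -1.96 ± 0.43 (SE), adjusted p = 0.00866). Unc5b went from 4.99 ± 0.728 to 1.62 ± 0.250 RPKM. The only rise was of Plxnc1, a plexin, at 8.11, 5.86 and 6.44 RPKM at P8 and 19.3, 14.01 and 23.5 RPKM at P30 (log2 fold change 1.43 ± 0.32 (SE), adjusted p = 0.011).

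The 7 glia-higher falls of that list were Marcksl1 (from 28.9 ± 0.700 to 1.53 ± 1.47 RPKM), Sema5a (from 12.7 ± 3.13 to 1.501 ± 1.56 RPKM), Slit3 (from 7.20 ± 2.15 to 1.72 ± 0.415 RPKM), Ephb2 (from 3.16 ± 0.597 to 1.30 ± 0.358 RPKM), Plxna3 (from 1.93 ± 0.255 to 0.662 ± 0.239 RPKM), Plxnb1 (from 3.94 ± 2.83 to 0.566 ± 0.471 RPKM) and Ephb6 (from 2.54 ± 1.23 to 0.422 ± 0.274 RPKM). They fell by 5.45, 6.19, 3.27, 2.15, 1.83, 1.47 and 0.872 times the glial yardstick, in that order. Without P30 replicate 3, 9 of the 55 genes fell and none rose. Basp1, Crmp1, Plxna1, Unc5d and Ephb3 kept their calls without any 1 library, and Ephb3 lost its call without both first replicates (limma, adjusted p = 0.0529). Others were lost at an adjusted p up to 0.154 for Gap43 without P30 replicate 3, 0.113 for Dpysl4 without P30 replicate 3, 0.17 for Dpysl5 without P30 replicate 2, 0.12 for Unc5b without P30 replicate 3 and 0.0588 for Plxnc1 without P30 replicate 3.

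**Figure D4:**
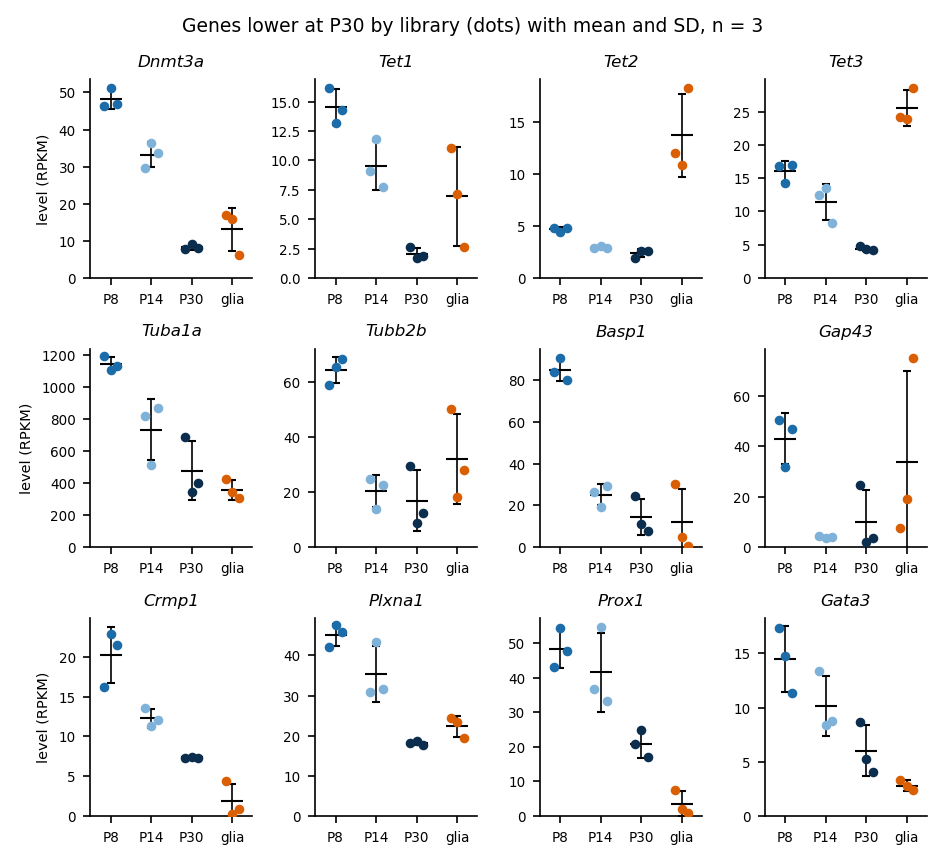
Levels (RPKM, vertical axes from 0) of 12 genes that fell from P8 to P30, in P8, P14 and P30 SGNs and P8 glia. Dots are libraries, the horizontal mark is the mean and the bar the SD (n = 3). Dnmt3a went from 48.2 ± 2.68 to 8.28 ± 0.768 RPKM with no overlap, and Tet2 and Tet3 were highest in glia.

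Dnmt3a and the 3 Tet enzymes, which write and oxidise DNA methylation, all fell. Of 15 DNA methylation genes 4 fell and 1 rose (26.7% and 6.67%, beside 3.33% and 2.43% over all genes), with a median of 0.07. Dnmt3a, a de novo DNA methyltransferase (chr12:3806007-3914443, plus strand), was at 46.3, 51.2 and 47.0 RPKM at P8 and 7.69, 9.15 and 8.002 RPKM at P30. The P30 libraries lay within a narrow band far below P8, and the P14 libraries at 29.6, 36.3 and 33.6 RPKM lay between (log2 fold change -2.58 ± 0.15 (SE), adjusted p = 3.95e-08). Tet1, which oxidises methylcytosine (chr10:62804570-62908996, minus strand), was at 16.2, 13.2 and 14.3 RPKM at P8 and 2.63, 1.69 and 1.88 RPKM at P30 (log2 fold change -2.82 ± 0.33 (SE), adjusted p = 6.58e-05). Tet3, of the same family, was at 16.8, 14.2 and 17.0 RPKM at P8 and 4.75, 4.31 and 4.19 RPKM at P30 (log2 fold change -1.88 ± 0.20 (SE), adjusted p = 2.93e-05). It was glia-higher, at 24.2, 23.9 and 28.6 RPKM in glia, and its fall was 4.83 times the glial yardstick. Tet2, also glia-higher, was at 4.79, 4.42 and 4.76 RPKM at P8 and 1.92, 2.60 and 2.57 RPKM at P30 (log2 fold change -1.06 ± 0.23 (SE), adjusted p = 0.00829), with a fall of 1.78 times the yardstick. Zbtb4, a zinc finger protein that binds methylated DNA, rose (12.5, 10.5 and 10.96 RPKM at P8 and 29.8, 24.8 and 30.5 RPKM at P30, log2 fold change 1.29 ± 0.21 (SE), adjusted p = 0.001). Dnmt3a, Tet1, Tet3 and Zbtb4 kept their calls in every alternative tried. Tet2, near 2-fold, lost its call without P30 replicate 1 (limma, adjusted p = 0.0627). It also lost its call with DESeq2, with sample quality weights and without both first replicates, where 3 of the 15 genes fell.

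Because these enzymes act on CG dinucleotides, their own promoters are shown as windows of 300 bases (250 before to 50 after the start, 5′ to 3′) from RefSeq, build GRCm38.p6, with CG, read the same on both strands, in capitals. Dnmt3a has 3 listed starts. The first and the third are shown, and counts per gene do not tell which start was used. The window at the first start (chr12:3806730-3807029, plus strand) holds 46 CG, as many or more than which are held by 1.65% of 32851 mouse promoters of that length. The window at the third start (chr12:3891494-3891793, plus strand) holds 18 CG (29.7% of promoters with as many), that of Tet1 (chr10:62887275-62887574, minus strand) 17 (31.4%) and that of Tet3 (chr6:83441629-83441928, minus strand) 22 (23.1%). The Tet1 window lies inside the gene span given above and not at its 5′ end. For Tet1 and Tet3, with 1 listed start each, the counts do not tell which start was used either. These are descriptions of sequence, since methylation was not measured here.
Dnmt3a at the first start: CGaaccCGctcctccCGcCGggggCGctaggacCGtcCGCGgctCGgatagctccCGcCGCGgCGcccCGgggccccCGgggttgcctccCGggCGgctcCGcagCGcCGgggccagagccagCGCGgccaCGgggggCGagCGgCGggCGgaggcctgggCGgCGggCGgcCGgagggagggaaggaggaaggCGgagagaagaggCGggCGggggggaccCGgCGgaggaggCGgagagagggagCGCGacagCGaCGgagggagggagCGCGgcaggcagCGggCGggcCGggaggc
Dnmt3a at the third start: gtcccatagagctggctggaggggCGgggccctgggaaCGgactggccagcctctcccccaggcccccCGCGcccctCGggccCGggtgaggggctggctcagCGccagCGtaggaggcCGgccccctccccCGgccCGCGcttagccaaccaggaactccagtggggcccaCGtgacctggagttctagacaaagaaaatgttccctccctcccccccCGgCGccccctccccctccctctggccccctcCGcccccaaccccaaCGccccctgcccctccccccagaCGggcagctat
Tet1: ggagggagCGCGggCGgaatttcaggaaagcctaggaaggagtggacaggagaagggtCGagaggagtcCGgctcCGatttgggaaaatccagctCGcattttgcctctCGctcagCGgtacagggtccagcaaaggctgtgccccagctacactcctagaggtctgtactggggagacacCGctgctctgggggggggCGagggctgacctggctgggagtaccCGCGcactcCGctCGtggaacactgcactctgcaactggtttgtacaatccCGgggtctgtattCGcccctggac
Tet3: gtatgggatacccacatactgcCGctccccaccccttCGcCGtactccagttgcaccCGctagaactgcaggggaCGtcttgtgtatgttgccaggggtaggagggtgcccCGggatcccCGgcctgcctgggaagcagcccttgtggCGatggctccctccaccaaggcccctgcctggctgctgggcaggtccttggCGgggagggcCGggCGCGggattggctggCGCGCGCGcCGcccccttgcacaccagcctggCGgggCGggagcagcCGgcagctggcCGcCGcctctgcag

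Transcription factors of SGN development were divided. Of 37 tested 3 rose and 3 fell (8.11% each, beside 2.43% and 3.33% over all genes). Prox1, a homeobox factor of developing SGNs, was at 43.0, 54.3 and 47.8 RPKM at P8 and 20.8, 25.0 and 16.9 RPKM at P30 (log2 fold change -1.26 ± 0.24 (SE), adjusted p = 0.00378), with the P14 libraries at 36.7, 54.7 and 33.2 RPKM. Gata3, a zinc finger factor needed for the auditory wiring of SGNs, was at 17.4, 14.8 and 11.3 RPKM at P8 and 8.69, 5.29 and 4.10 RPKM at P30 (log2 fold change -1.29 ± 0.37 (SE), adjusted p = 0.0382). Among the oestrogen-related receptors, Esrrb rose and was at 1.32, 1.81 and 2.23 RPKM at P8 and 6.21, 5.90 and 8.14 RPKM at P30 (log2 fold change 1.92 ± 0.44 (SE), adjusted p = 0.0111). Esrra rose too, at 2.26, 5.14 and 2.05 RPKM at P8 and 6.58, 11.1 and 13.5 RPKM at P30 (log2 fold change 1.66 ± 0.47 (SE), adjusted p = 0.0384), with P8 replicate 2 near the P30 libraries. The remaining member, Esrrg, was at 77.1, 86.1 and 99.1 RPKM at P8 and 96.6, 89.97 and 117 RPKM at P30 with no difference beyond the spread. Ppargc1a, a coactivator of these receptors, went from 58.2 ± 5.31 to 70.6 ± 2.80 RPKM and did not pass the test. Prox1 kept its call without any 1 library, while Gata3, Esrrb and Esrra lost theirs (adjusted p up to 0.192 for Gata3 without P30 replicate 3, 0.0586 for Esrrb without P8 replicate 1 and 0.149 for Esrra without P8 replicate 1). With the replicate block 5 of the 37 fell. Of 21 markers of SGN subtypes, 1 rose and 4 fell (4.76% and 19.0%, beside 2.43% and 3.33% over all genes). Trim54 rose, at 2.64, 0.0439 and 1.4502 RPKM at P8 and 7.63, 6.58 and 5.98 RPKM at P30, with 26.6% of its exons shared with another gene. Beside Gata3, Tle4 fell and was at 23.6, 34.1 and 20.5 RPKM at P8 and 13.7, 13.7 and 11.004 RPKM at P30. Pcdh20 was at 8.94, 7.28 and 3.55 RPKM at P8 and 2.76, 2.51 and 1.30 RPKM at P30, with P8 replicate 3 close to the P30 libraries. Plk5 was at 5.06, 10.8 and 3.27 RPKM at P8 and 1.46, 0.238 and 0.114 RPKM at P30. Each of these 5 calls was lost without P30 replicate 3, so none of the 21 was changed then, and shifts in the picked subtypes and shifts within cells cannot be told apart. Calb2 (calretinin), the most abundant, was at 178, 239.9 and 225 RPKM at P8 and 258, 488 and 265 RPKM at P30 (log2 fold change 0.55 ± 0.23 (SE), adjusted p = 0.167).

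Of 45 adhesion genes 4 fell and 1 rose (8.89% and 2.22%, beside 3.33% and 2.43% over all genes). Of the 4 falls, 1 was of a glia-higher gene. Without P30 replicate 3 there were 3 falls and 0 rises. Cdh4 (R-cadherin) was at 14.03, 10.6 and 12.3 RPKM at P8 and 5.27, 4.47 and 4.66 RPKM at P30 (log2 fold change -1.37 ± 0.22 (SE), adjusted p = 0.000892). The teneurin Tenm3 was at 36.7, 28.3 and 33.9 RPKM at P8 and 16.2, 12.4 and 16.1 RPKM at P30 (log2 fold change -1.17 ± 0.19 (SE), adjusted p = 0.00115). Glia-higher Cadm1, a synaptic immunoglobulin-like protein, was at 23.3, 26.5 and 26.6 RPKM at P8 and 13.2, 10.3 and 8.60 RPKM at P30 (log2 fold change -1.28 ± 0.18 (SE), adjusted p = 0.000431), a fall of 4.39 times the glial yardstick. The neuroligin Nlgn3 was at 6.12, 4.94 and 5.82 RPKM at P8 and 3.07, 1.48 and 2.87 RPKM at P30, with 41.2% of its exons shared with another gene. Nrxn3 (a neurexin) rose, at 13.9, 6.65 and 8.25 RPKM at P8 and 32.0, 18.9 and 34.2 RPKM at P30 (log2 fold change 1.56 ± 0.45 (SE), adjusted p = 0.0422). Cdh4, Tenm3 and Cadm1 kept their calls without any 1 library, and the others were lost at an adjusted p up to 0.0951 for Nlgn3 without P30 replicate 2 and 0.16 for Nrxn3 without P8 replicate 2. With the replicate block 2 of the 45 rose. Of 27 neurotrophin, neuregulin and FGF signalling genes 1 rose and 2 fell (3.70% and 7.41%, beside 2.43% and 3.33% over all genes). The falls were of Fgf10 (42.5, 62.9 and 59.2 RPKM at P8 and 30.5, 30.4 and 20.7 RPKM at P30, log2 fold change -1.03 ± 0.27 (SE), adjusted p = 0.0219) and glia-higher Erbb3. Both were lost without P30 replicate 3 (adjusted p = 0.141 and 0.12), and 4 of the 27 fell with the replicate block. The neurotrophin-3 receptor Ntrk3 (from 30.004 ± 3.74 to 28.0 ± 4.49 RPKM) and the myelination signal Nrg1 (from 31.7 ± 3.02 to 38.7 ± 1.54 RPKM) did not pass the test.

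Among the metabolic gene lists only that of glycolysis held calls, and enzymes outside these lists are not covered here. Of 23 glycolytic enzyme genes 2 rose and none fell: Pkm, pyruvate kinase, at 86.3, 107.5 and 108.01 RPKM at P8 and 225, 241 and 299.8 RPKM at P30 (log2 fold change 1.30 ± 0.16 (SE), adjusted p = 0.000118), and Pfkfb3. Exons of another gene cover 15.3% of Pkm. The share of rises in the glycolysis list was 8.70%, beside 2.43% over all genes. DESeq2 and the fit without both first replicates each gave 2 rises and 1 fall, and sample quality weights 2 rises and 2 falls. Aldoa (aldolase A) was at 161, 200.03 and 179.6 RPKM at P8 and 311, 311 and 361 RPKM at P30, past the p-value threshold (0.00373) but under 2-fold, and Gapdh at 534, 430.0 and 687 RPKM at P8 and 764, 558 and 865 RPKM at P30 with no difference beyond the spread. None of 78 nuclear genes of oxidative phosphorylation (median 0.18) and none of 23 cholesterol synthesis genes (median -0.30) changed by limma, edgeR or DESeq2. At an unadjusted p under 0.05, 6 of the former were higher and none lower, and 1 of the latter was higher and 1 lower. The ATP synthase subunit Atp5b was at 671, 739 and 768 RPKM at P8 and 888, 748 and 898 RPKM at P30, and Srebf2, a regulator of cholesterol synthesis, at 22.6, 15.6 and 20.1 RPKM at P8 and 20.1, 15.7 and 22.9 RPKM at P30. Mitochondrially encoded RNA took 21.6% ± 1.01 (SD, n = 3) of the counts at P8 and 20.1% ± 2.11 at P30. Of 20 cell cycle and DNA replication genes none changed by limma or edgeR, 1 fell by DESeq2 and 3 fell with sample quality weights, and 1 was lower at an unadjusted p under 0.05.

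Matrix and immediate early genes were uneven within each age. Of 21 collagen and matrix genes 5 fell, all glia-higher, and the median was -4.18. Only 5 of the 21 passed the CPM filter at both ages. Genes that passed at only 1 age had to differ, so the filter in part set this median. The laminin chain Lamc1 was at 94.97, 60.4 and 63.4 RPKM at P8 and 7.50, 3.85 and 3.30 RPKM at P30 (log2 fold change -3.92 ± 0.48 (SE), adjusted p = 0.0001), a fall of 1.80 times the glial yardstick. Lamb1 (from 11.9 ± 4.15 to 0.858 ± 0.447 RPKM, 0.699 times) and Fbln2 (fibulin-2, from 6.71 ± 1.62 to 0.651 ± 0.710 RPKM, 1.24 times) fell with Lama2 and Col4a1. The cartilage collagen Col2a1 was at 81.3, 1.36 and 1.31 RPKM at P8 and 12.6, 0.0707 and 0 RPKM at P30. Sparc was at 347, 25.0 and 31.1 RPKM at P8 and 24.9, 1.68 and 1.64 RPKM at P30. In both, replicate 1 of each age was far above the others, as for the connective tissue markers, and neither passed the test. Of 20 immediate early genes 1 fell, glia-higher Egr2, a factor of myelinating Schwann cells (59.1, 21.2 and 26.0 RPKM at P8 and 10.1, 4.22 and 0.703 RPKM at P30). Fos was at 92.7, 24.3 and 19.6 RPKM at P8 and 23.9, 9.05 and 3.93 RPKM at P30. Jun was at 66.9, 24.4 and 21.03 RPKM at P8 and 33.3, 22.5 and 16.1 RPKM at P30, again highest in replicate 1 of each age. Fos passed the test only with the replicate block (limma, adjusted p = 0.0495). The replicate block gave 9 matrix falls and 7 immediate early falls. Without P30 replicate 3 the falls were 3 and 0, and without both first replicates 2 and 0. The part of other cells in these values was not tested. The list of neuropeptides and granins, with 13 genes tested, held 2 rises, Nxph4 and Cbln1. Both are secreted proteins that bind neurexins, and neither is itself a neuropeptide or a granin. The granin Chgb was at 305, 248 and 349 RPKM at P8 and 335, 301 and 327 RPKM at P30. By limma, edgeR and DESeq2 none of 5 sex-linked genes changed, nor did any reach an unadjusted p under 0.05, while with sample quality weights 1 fell.

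**Figure D5:**
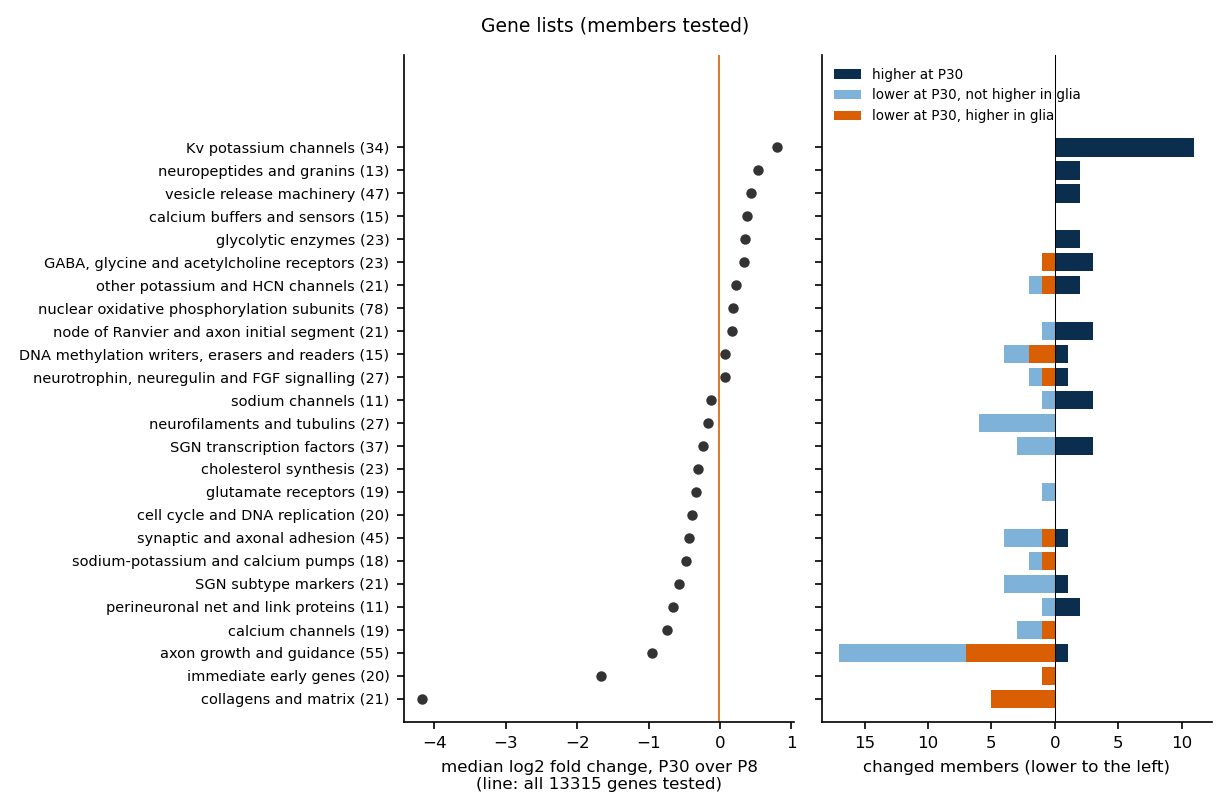
Gene lists with the number of members tested: median log2 fold change of P30 over P8 (left, orange line at -0.02, the median of all 13315 genes) and the number of changed members (right, rises to the right, falls to the left, with the glia-higher falls in orange). Kv potassium channels have the most rises (11 of 34) and axon growth and guidance genes the most falls (17 of 55, 7 of them glia-higher). Only 5 of the 21 collagen and matrix genes passed the CPM filter at both ages, so the filter in part set their median.

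The P14 libraries place these changes in time. They had no part in the CPM filter, but they were among the 15 SGN libraries of the fit and so shared in the estimate of the spread. The log2 of the P14 mean level lay between those of P8 and P30 for 303 of the 323 rises and 417 of the 443 falls. By P14 the median rise had covered 59.4% and the median fall 50.9% of the log2 change. In the SGN-higher class the values were 58.7% for rises and 48.8% for falls, and in glia-higher falls 50.7%. Since P14 was compared with the same P8 and P30 libraries that gave the calls, these shares are a description. Genes that had moved most of the way by P14 included Hapln4, Gap43 (4.42, 3.71 and 4.10 RPKM at P14) and Basp1 (26.5, 19.4 and 29.1 RPKM), named after their values were seen. Kcnb2 (16.6, 14.9 and 48.1 RPKM), Cbln1 (3.11, 1.24 and 1.09 RPKM) and Gldn (41.3, 37.8 and 30.7 RPKM) were at P14 still close to P8 in at least 1 library.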

How the data were processed

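The authors amplified RNA of 3 pools of hand-picked cells for each SGN age and for glia (hair cells were sorted by FACS; NuGEN Ovation V2, oligo-dT and random primers). The deposited values are raw counts per gene. The submitters' processing notes name CASAVA, STAR 2.4.0i, featureCounts and mm10. Strand, multimapping and read pair settings were not given in the sources used here, and antisense or overlapping genes cannot be told apart. Of the counts from 1 to 20, 66.7% to 68.9% were even, so reads of a pair may have been counted singly.

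Here, genes over 1 CPM in all 3 P8 or all 3 P30 libraries were fitted with limma-voom on TMM-normalised counts of the 15 SGN libraries, and called at an adjusted p under 0.05 and over 2-fold. A second limma-voom fit classed genes as higher in P8 glia or in SGNs (mean of P8 and P30) by the same thresholds. Levels are RPKM on TMM-scaled library sizes, since 1 RNA gene took 23.4% to 54.8% of the TPM total in the 6 libraries. Marker sums were tested in TPM. Depth was 20384100 to 37287489 counts a library, and the SE covers the spread between libraries. Libraries of the same number at P8 and P30 deviated together (r = 0.337, 0.165 and 0.149 over 13315 genes, all above 0.1), as did P8 replicate 3 with P30 replicate 2 (r = 0.107), while the remaining unmatched pairs ran from -0.23 to 0.082. The numbers were taken to pair the libraries, and the number was used as a block in an alternative.

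The genes named are the 12 largest rises and 12 largest falls among called genes that were not glia-higher, had CPM over 10 at an age and no overlap between the ages, the 6 largest each way among glia-higher genes, the called and up to 4 most abundant members of each list, and markers. Predicted genes and genes of 1 chromosome were counted but not named, and some further genes under this rule are not reported here. The members and lists were chosen with earlier results of these data known. Symbols came from GENCODE M21 (52403 of 52550 matched) and promoters from RefSeq (GRCm38.p6). Scripts were tested on simulated data. Alternatives used edgeR's quasi-likelihood test, DESeq2, sample quality weights, and other libraries, scaling, filters and class rules. Versions were R 4.3.3, limma 3.58.1, edgeR 4.0.16, DESeq2 1.42.0, Python 3.11.15, pandas 2.3.3, numpy 2.4.6, scipy 1.17.1 and matplotlib 3.10.9.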

Additional observations from a re-analysis of the deposited data

How the results depend on the processing

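Counts moved with the processing, while no called gene changed sign in any alternative, and 220 of the 766 calls held in all of them. In the order of all changes, rises, falls, glia-higher rises, glia-higher falls, SGN-higher rises and SGN-higher falls, the counts of 766, 323, 443, 12, 225, 244 and 96 became 1661, 610, 1051, 28, 518, 392 and 201 with sample quality weights. Without both first replicates, chosen after seeing the data, they were 433, 208, 225, 4, 98, 159 and 57. Leaving out 1 SGN library at a time gave 340 to 618, 174 to 300, 166 to 374, 4 to 9, 83 to 204, 135 to 230 and 44 to 82, lowest without P30 replicate 3 for all but the glia-higher rises (5 there, 4 without P8 replicate 3, 5 without P8 replicate 1 or 2). Without P30 replicate 2 there were 491 changes with 113 glia-higher and 59 SGN-higher falls, and without P8 replicate 1 144 glia-higher falls and 157 SGN-higher rises. Leaving out 1 glia library gave 12 to 15, 220 to 227, 230 to 234 and 76 to 102 for the 4 classed counts. With edgeR there were 196 rises, 4 of them glia-higher and 150 SGN-higher. Glia-higher rises numbered 7 at CPM over 10 and 5 with classes at 4-fold and adjusted p under 0.01. Classed against P8 SGNs alone there were 24 glia-higher rises and 151 SGN-higher falls, and against P30 SGNs alone 5 and 47. Fewer libraries entered each leave-out, and the cause of the other shifts was not tested. The replicate block gave 975 changes (354 higher and 621 lower) and kept 754 of the 766 calls. Among genes named with values it ended the call of Fxyd7 and added Fos. The other settings gave 638 to 1073 changes. Scaling to library size only moved the median of all genes to -0.13 on the log2 scale. Depth limits genes near 1 CPM, where a few reads decide a value.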

Other observations

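Changed genes had a longer median span than all genes tested. The median gene span in the GENCODE annotation was 40.6 kb among the 323 rises, 45.3 kb among the 443 falls and 23.7 kb among the 13301 of 13315 genes with a span. Among falls the median was 51.8 kb for glia-higher genes, 44.8 kb for SGN-higher genes and 30.8 kb for the rest. The difference from all genes was not tested.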
